A study of Mus musculus with 5 samples.

Results

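Mucins and the proteins secreted alongside them form the wet surface layer of glands, airways and gut. The 10 genes described here are the membrane mucins Muc1, Muc4, Muc13 and Muc20, the gel-forming mucin Muc5b, the mucin-folding protein Agr2, the antibody transporter Pigr, and the secreted proteins Lcn2, Tff3 and Slpi. They were taken by symbol from the deposited count table, and 10 of 10 were found among its 24527 genes. Bulk RNA-seq measured them in prostate tumors, 3 from castrated and 2 from intact TripleTg mice, and the question was how androgen withdrawal bears on the transcriptome of these tumors. All 5 mice carried the same alleles (hHGFtg:H11hMET/+:Ctnnb1 L(Ex3)/+:PB-Cre4) on mixed C57BL/6 and C3H SCID backgrounds: a human HGF transgene (hHGFtg) expressed throughout the body, a human MET transgene (hMETtg) and a stabilized β-catenin allele of Ctnnb1 (BCAT). The last 2 are switched on by a Cre recombinase (PBCre) under the probasin promoter, which is active in prostate epithelial cells and itself responds to androgen. Castration was done at 4 months of age, and tumors of both groups were taken at 8 months. The labels name the samples as replicates without saying that each is a separate mouse, which is assumed here. Each p-value sets the difference between the groups against the spread between these samples. Each sample is bulk tissue, so fewer cells of a type and less RNA per cell cannot be told apart.

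Membrane mucins are anchored in the apical surface of epithelial cells and carry a densely O-glycosylated outer part, while gel-forming mucins are released and make mucus. Mucins are folded in the endoplasmic reticulum with the help of Agr2, and their sugar chains are built in the Golgi apparatus by GalNAc transferases and the enzymes that extend and cap the chains. Glands add defense proteins to the same fluid, and Pigr carries polymeric IgA, joined by the J chain, from the tissue to the lumen.

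None of the genes that could be tested differed between castrated and intact mice by more than the spread between mice allowed the test to call. Of the 10, 8 passed the filter on low counts (CPM, the counts of a gene per 1000000 counts of its library, above 1 in at least 2 samples), and 0 of these 8 had an unadjusted p under 0.05 in edgeR's quasi-likelihood test, where 15.0% of all 14612 genes tested did. Their smallest adjusted p was 0.361, for Slpi (edgeR). Of all genes tested, 0% were called, which required more than a doubling or halving together with an adjusted p under 0.05, and 10.9% met the same fold change limit at an unadjusted p under 0.05. The log2 fold change was above 0 for 8 of the 8 genes tested, against 47.9% of all genes tested, with a median of 0.92 against -0.03. The genes were chosen with earlier results of these data known, so their common direction is no evidence of a change. This direction was not stable for Agr2, at -0.22 with the replicate number as a block and -0.21 without castrated replicate 3, or for Lcn2, at -0.27 without castrated replicate 3 and -0.23 without intact replicate 1. In 1 of the 8, Slpi, every castrated sample lay above both intact samples, which was so for 17.0% of all genes tested, and 16.1% of all genes lay below in every castrated sample. Some of the 8 differed widely between mice within a group. Among the castrated samples Muc1 differed 18.6-fold, Slpi 12.8-fold and Pigr 12.5-fold, but Agr2 only 2.03-fold. Between the 2 intact samples Muc1 differed 11.2-fold and Lcn2 8.84-fold, but Agr2 only 1.01-fold. These ranges were not compared with those of all genes.

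Values for single samples are given below in the order of replicates 1, 2 and 3 for castrated mice and replicates 1 and 2 for intact mice. Sequencing depth, as the sum of counts over genes, was 28015507, 18951782 and 20492061 for the castrated mice and 21560355 and 22853501 for the intact mice. The 10 genes took 0.0377%, 0.138% and 0.180% of the counts in the castrated mice and 0.0174% and 0.0915% in the intact mice. The low samples, castrated replicate 1 and intact replicate 1, thus came from both groups. Before the results, the tissue label was checked against genes of prostate secretory cells, which did not all go the same way. Tgm4, a secreted transglutaminase of the prostate that was chosen after its values were seen, had a CPM of 1347 in intact replicate 2 and at most 0.419 in the other 4 samples. Mmp7, a protease and the most abundant gene of the list per length, had a CPM of 226, 519 and 759 in the castrated mice and 235 and 4509 in the intact mice. Some secreted proteins of the list were instead highest in castrated replicate 3, Azgp1 at a CPM of 89.6, with at most 2.65 in the other 4 samples, and Apof at 35.1, with at most 2.14 in the others. Msmb, a main secretion of prostate epithelium, was at 0 counts in all 5 samples. Without intact replicate 2 the log2 fold change was 2.14 for Muc1, 3.53 for Slpi, 3.08 for Pigr, 2.85 for Lcn2 and between 0.13 and 0.43 for Agr2, Muc4, Muc13 and Muc20. The smallest adjusted p of the 8 was then 0.344, for Lcn2 (edgeR, unadjusted p = 0.0447), with the single intact sample assumed to vary like the castrated ones. Transcripts of the seminal vesicle, the gland next to the prostate, summed over 7 genes, led by Svs4, to a CPM of 7.62 in intact replicate 2 and to at most 0.174 elsewhere. The summed CPM of 15 epithelial genes, among which the keratin Krt18 was the most abundant per length, was 5444, 4983 and 5625 in the castrated mice and 7758 and 5307 in the intact mice.

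The promoters of the 4 tested genes that varied most between samples, Muc1 (84.0-fold from lowest to highest CPM), Slpi (30.9-fold), Pigr (16.0-fold) and Lcn2 (14.2-fold), are printed here so that the motif matches described below can be seen in place. Promoter sequence from RefSeq (build GRCm38.p6, the assembly of mm10) was matched for 8 of the 10 genes, with 2 starts for Muc13, and Muc5b and Tff3 are not in that table. Each sequence gives the 250 bases before the transcription start, 5′ to 3′ on the strand of the gene. Muc1 lies at chr3:89228806-89229055 (plus strand), Slpi at chr2:164356508-164356757 (minus strand), Pigr at chr1:130826434-130826683 (plus strand) and Lcn2 at chr2:32387740-32387989 (minus strand). Capitals mark matches on either strand to 4 short motifs. The TATA box was searched as TATAAA and the E-box as CACGTG. The core bound by TCF factors, the DNA-binding partners of β-catenin, was searched as CTTTGA. The motif of AP-1 was searched as TGANTCA.
Muc1: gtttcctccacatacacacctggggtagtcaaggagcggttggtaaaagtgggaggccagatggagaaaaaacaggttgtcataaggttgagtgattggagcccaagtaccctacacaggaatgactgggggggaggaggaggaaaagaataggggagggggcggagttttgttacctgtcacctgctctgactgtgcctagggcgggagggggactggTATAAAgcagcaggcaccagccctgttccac
Slpi: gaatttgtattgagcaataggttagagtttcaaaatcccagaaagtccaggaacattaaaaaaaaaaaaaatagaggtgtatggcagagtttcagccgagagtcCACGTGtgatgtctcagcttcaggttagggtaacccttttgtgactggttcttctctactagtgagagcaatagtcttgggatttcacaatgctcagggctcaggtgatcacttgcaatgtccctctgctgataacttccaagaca
Pigr: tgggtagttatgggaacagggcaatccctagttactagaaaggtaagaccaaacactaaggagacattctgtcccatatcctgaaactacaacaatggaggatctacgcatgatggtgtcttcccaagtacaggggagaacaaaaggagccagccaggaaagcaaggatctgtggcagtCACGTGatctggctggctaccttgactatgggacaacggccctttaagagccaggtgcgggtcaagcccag
Lcn2: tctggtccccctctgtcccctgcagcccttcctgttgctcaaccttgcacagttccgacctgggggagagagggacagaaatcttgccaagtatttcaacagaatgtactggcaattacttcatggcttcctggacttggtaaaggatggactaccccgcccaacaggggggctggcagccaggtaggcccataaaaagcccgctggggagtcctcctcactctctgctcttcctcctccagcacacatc

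The Muc1 promoter held TATAAA 31 bases before the start, and that of Muc4 held it 36 bases before, as did 12.4% of the 32851 promoters in the table somewhere in the same window. Slpi and Pigr each held CACGTG, 146 and 71 bases before the start, which is found in 6.02% of all promoters. In the printed Lcn2 window none of the 4 letter strings was found. CTTTGA occurred in 1 of the 9 promoters, the second start of Muc13, and in 13.8% of all promoters. TGANTCA was present at both starts of Muc13 and in 6.75% of all promoters, and at the second start it shares bases with a CTTTGA match. These are matches of letters and not sites shown to be bound.

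**Figure D1:**
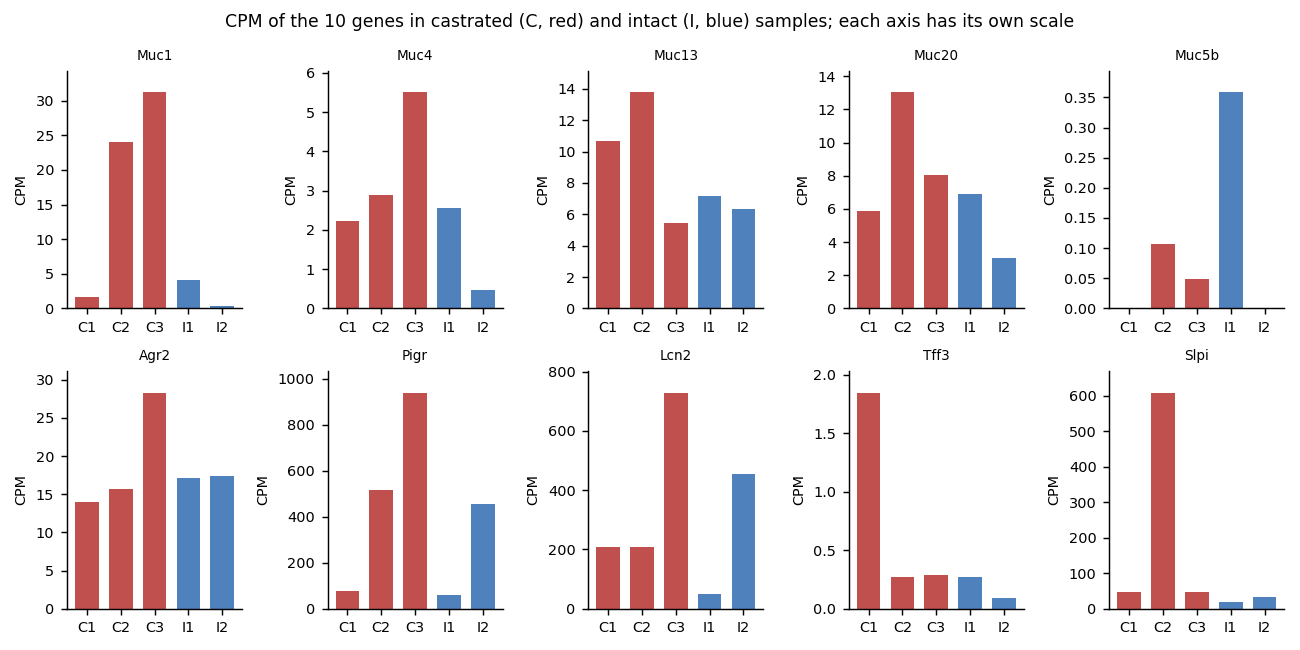
CPM of each of the 10 genes in castrated replicates 1 to 3 (C1 to C3, red) and intact replicates 1 and 2 (I1 and I2, blue), 1 bar per sample, with a separate linear scale from 0 for each gene. Slpi is at 610 in castrated replicate 2 and at most 48.0 elsewhere, while Pigr (939) and Lcn2 (729) are highest in castrated replicate 3 and lowest in intact replicate 1.

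Muc1 (chromosome 3, 89229056 to 89233381, plus strand) encodes a membrane mucin found on most glandular epithelia. Its CPM was 1.67, 24.0 and 31.2 in the castrated mice and 4.17 and 0.372 in the intact mice. Castrated replicates 2 and 3 were high, castrated replicate 1 lay between the intact samples, and the groups overlapped. Castrated mice had a mean of 19.0 ± 15.4 (SD, n = 3) and intact mice one of 2.27 ± 2.68 (SD, n = 2). The log2 fold change was 3.06 (standard error 1.53, 95% interval -0.82 to 6.93, adjusted p = 0.400 in edgeR). This interval holds both no difference and a very large one. Genes of adipocytes followed the same pair of samples, since 10 of them summed to a CPM of 64.7, 1219 and 1218 in the castrated mice, and to 52.3 and 101 in the intact mice. Fabp4, a fatty acid carrier, was the adipocyte gene highest in the series per length, and Adipoq, the fat hormone adiponectin, was at 0 counts in intact replicate 1. Of the 10 adipocyte genes 6 were higher in castrated mice at an unadjusted p under 0.05, among them Plin1 and Cidec, which coat lipid droplets, against 8.74% of all genes tested, and 0 passed after adjustment. This order was not particular to fat, since Jchain, Mzb1 and Tnfrsf17, genes of antibody-secreting cells described below, were also highest in castrated replicates 2 and 3. The part of fat tissue or of other cells in the Muc1 values was not tested.

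The other membrane mucins spread less between samples. Muc13 (chromosome 16, 33794037 to 33819927, plus strand), a mucin best known from the intestine, had a CPM of 10.7, 13.8 and 5.46 in the castrated mice and 7.17 and 6.32 in the intact mice. Both intact values fell inside the castrated range. Its log2 fold change of 0.56 had a 95% interval from -0.64 to 1.76. Muc20 (chromosome 16, 32777419 to 32797435, minus strand), a mucin described as binding the MET receptor, had a CPM of 5.86, 13.0 and 8.04 in the castrated mice and 6.90 and 3.02 in the intact mice, with castrated replicate 1 below intact replicate 1. For Muc20 the log2 fold change was 0.85, with an interval from -0.56 to 2.27. Muc4 (chromosome 16, 32735886 to 32782390, plus strand), a large mucin that binds the receptor ErbB2, had a CPM of 2.23, 2.90 and 5.51 in the castrated mice and 2.55 and 0.465 in the intact mice. Intact replicate 2 was lowest, on 10 counts, and intact replicate 1 lay within the castrated values. The log2 fold change of Muc4 was 1.22, with an interval from -0.93 to 3.38. Adjusted p-values of these 3 genes in edgeR ran from 0.510 for Muc20 to 0.608 for Muc13. Muc4 and Muc20 lie tail to tail on opposite strands and share 4972 bases from 32777419 to 32782390, of which 627 are exonic in both genes in the GENCODE annotation. Whether reads were assigned by strand is not given in the sources used here, so the 2 genes may share or lose reads there.

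Agr2 (chromosome 12, 35992925 to 36004081, plus strand), a disulfide isomerase of the endoplasmic reticulum, was the steadiest of the 10 genes. Its CPM was 13.9, 15.7 and 28.3 in the castrated mice and 17.2 and 17.3 in the intact mice. The intact samples were nearly equal and lay between the castrated ones. The log2 fold change was 0.16 (standard error 0.39), and its 95% interval from -0.81 to 1.14 is the narrowest of the 8 (adjusted p = 0.869 in edgeR). The gel-forming mucin was nearly absent. Muc5b (chromosome 7, 141839072 to 141873085, plus strand), a main mucin of airway mucus, had 0, 2 and 1 counts in the castrated mice and 8 and 0 counts in the intact mice, under the filter, and is given without a fold change.

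Pigr (chromosome 1, 130826684 to 130852249, plus strand) had a CPM of 75.3, 516 and 939 in the castrated mice and 58.7 and 456 in the intact mice. Each group held low and high samples, and the log2 fold change was 0.99 (standard error 1.23, 95% interval -2.13 to 4.10, adjusted p = 0.734 in edgeR). Transcripts of the cells that make the cargo of Pigr were measured beside it. Jchain, the joining chain of polymeric IgA and IgM, had a CPM of 319, 1517 and 1225 in the castrated mice and 56.2 and 18.7 in the intact mice, so that the groups did not overlap. Its log2 fold change was 4.77 (standard error 0.97, unadjusted p = 0.0038, adjusted p = 0.289 in edgeR). Mzb1, a chaperone of antibody-secreting cells, had a CPM of 1.05, 7.35 and 6.48 in the castrated mice and 0.269 and 0.0930 in the intact mice. Tnfrsf17, the plasma cell receptor BCMA, had 3, 38 and 43 counts in castrated samples and 0 in both intact samples. Of the 5 plasma cell genes found, 3 were higher in castrated samples at an unadjusted p under 0.05 and 0 after adjustment, and 8.74% of all genes tested were higher at that unadjusted p. Sdc1, which epithelial cells also make, was the largest part of the summed CPM of this list in castrated replicate 1 (1148) and in both intact mice (1207 and 242). This list had 8 genes, of which 5 were found by symbol, and no values are given here for the antibody chain genes Igha, Ighm and Igkc. In intact replicate 2 Pigr was high while Jchain was at its lowest, so the 2 transcripts did not go together in that mouse.

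Lcn2 (chromosome 2, 32384637 to 32387739, minus strand) encodes lipocalin 2, which binds bacterial iron carriers and is made by epithelium and stored in neutrophil granules. Its CPM was 209 and 209 in castrated replicates 1 and 2, 729 in castrated replicate 3, 51.4 in intact replicate 1 and 455 in intact replicate 2. Castrated replicates 1 and 2 lay between the intact samples, so the groups overlapped. The log2 fold change was 0.60 (standard error 1.03, 95% interval -2.01 to 3.20, adjusted p = 0.813 in edgeR). The summed CPM of 12 neutrophil genes was 223, 205 and 121 in the castrated mice and 136 and 138 in the intact mice, so the sum was lowest in castrated replicate 3, where Lcn2 was highest, though single neutrophil genes differed in their order of samples. The most abundant of these per length was S100a8, a calcium-binding protein of neutrophils, at a CPM of 57.9, 37.5 and 27.4 in the castrated mice and 25.0 and 43.9 in the intact mice. Csf3r, the receptor for the growth factor of neutrophils, was the 1 gene of the 9 tested in this list that was higher at an unadjusted p under 0.05, against 8.74% of all genes tested. Elane, the neutrophil elastase and a defining granule gene, was at 0 counts in both intact samples and at 4, 3 and 10 counts in castrated samples. Basal cell genes summed over 7 genes to a CPM of 588, 698 and 1393 in the castrated mice and 438 and 1028 in the intact mice, and all 7 were detected in all 5 samples. This sum was highest in castrated replicate 3 and lowest in intact replicate 1, as Lcn2 was, but its genes differed among themselves. The most abundant per length was Krt15, a keratin of basal cells, with a CPM of 115, 171 and 373 in the castrated mice and 27.1 and 57.1 in the intact mice. Krt5, another basal keratin, ran from 28.9 in intact replicate 1 to 405 in intact replicate 2. These genes were looked at beside Lcn2 on 5 samples only, and their part in it was not tested.

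Slpi (chromosome 2, 164354070 to 164356507, minus strand) encodes a secreted inhibitor of neutrophil elastase and other proteases, made by mucosal epithelium and by macrophages. Its CPM was 48.0, 610 and 47.5 in the castrated mice and 19.7 and 33.1 in the intact mice. All 3 castrated samples lay above both intact samples, and castrated replicate 2 stood far above the other 4. Castrated mice had a mean of 235 ± 324 (SD, n = 3) and intact mice one of 26.4 ± 9.49 (SD, n = 2). The log2 fold change was 3.15 (standard error 1.40, 95% interval -0.38 to 6.68, adjusted p = 0.361 in edgeR). Without castrated replicate 2 it was 0.87 (unadjusted p = 0.060 and adjusted p = 0.633 from the same test). Castrated replicate 2 also had the most macrophage transcripts, with a sum over 10 genes of 2701, 7746 and 3151 in the castrated mice and 1230 and 1776 in the intact mice. The macrophage gene with the highest level per length was Lyz2, the macrophage lysozyme, at a CPM of 1596, 4736 and 1664 in the castrated mice and 558 and 1072 in the intact mice. All 10 macrophage genes were detected in all 5 samples, 7 of them (among them C1qb, Csf1r and Adgre1) were higher in castrated samples at an unadjusted p under 0.05, against 8.74% of all genes tested, with 0 after adjustment, and their part in the Slpi values was not tested.

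Tff3 (chromosome 17, 31125306 to 31129611, minus strand), a trefoil peptide that goblet and other mucous cells secrete with mucin, was scarce. It had 53, 5 and 6 counts in the castrated mice and 6 and 2 counts in the intact mice, so 53 of its 72 counts came from castrated replicate 1, and it stayed under the filter. The groups overlapped.

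**Figure D2:**
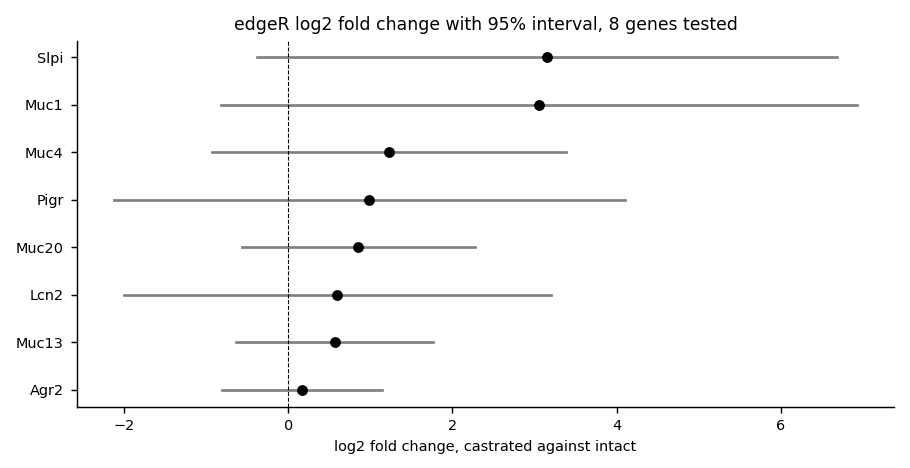
Log2 fold change of the 8 genes tested (points) with 95% intervals from edgeR's quasi-likelihood fit (lines), where values above 0 are higher in the 3 castrated than in the 2 intact samples. The points run from 0.16 for Agr2 to 3.15 for Slpi, and every interval includes 0.

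To compare the genes with each other, counts were divided by gene length and scaled to a fixed sum per sample (TPM, transcripts per 1000000 transcripts). Lcn2 had the highest mean level over the 5 samples, with a TPM of 861, followed by Slpi at 407, which rests on the TPM of 1654 in castrated replicate 2, and by Pigr at 238. In the other 4 samples Slpi was between 55.8 and 129. Agr2 followed with 55.8, Muc1 with 12.9, Muc13 with 6.75, Muc20 with 4.02, Tff3 with 2.85, Muc4 with 0.569 and Muc5b with 0.0168. Neighbors in this order overlapped in their values over samples with 2 exceptions. The lowest TPM of Agr2, 42.7, was above the highest of Muc1, 32.4, and the highest of Muc5b, 0.0593, was below the lowest of Muc4, 0.0766. Lcn2, Slpi, Pigr and Agr2 were thus the abundant part of the set, and the 5 mucins were lower.

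**Figure D3:**
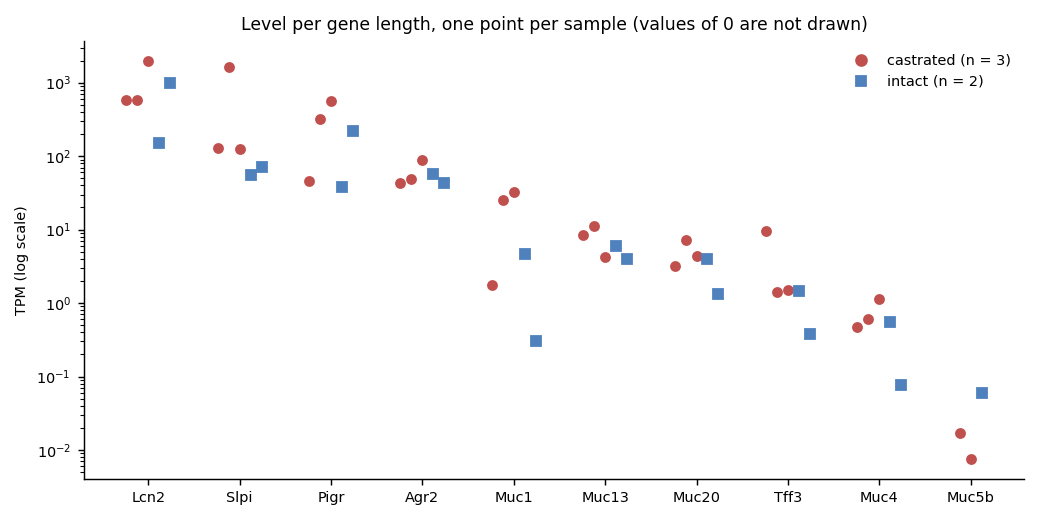
TPM of the 10 genes on a log axis, 1 point per castrated (red circles) or intact (blue squares) sample, ordered by the mean over all samples, with values of 0 (Muc5b in castrated replicate 1 and intact replicate 2) not drawn. Lcn2 ranges from 150 to 1996 and Muc1 from 0.308 to 32.4, while Agr2 stays between 42.7 and 87.3.

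The other mucins that could be tested were each far higher in a single mouse than in the rest. Of 13 further mucins looked up, 8 were found by symbol and 3 of these were tested. Muc2, the gel-forming mucin of the intestine, had a CPM of 52.6 in castrated replicate 1 and between 1.02 and 4.79 in the other samples. Muc6, the gel-forming mucin of gastric glands, had a CPM of 31.8 in intact replicate 1 and at most 1.77 elsewhere. Muc15, a membrane mucin, had a CPM of 17.2 in intact replicate 2 and at most 2.19 elsewhere. For each of the 3 the groups overlapped, and 0 had an unadjusted p under 0.05. The log2 fold change was 2.69 for Muc2, -3.81 for Muc6 and -2.58 for Muc15, so 2 of the 3 lay below 0, unlike the 8 genes above.

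Among 24 enzymes of mucin O-glycosylation, 20 were tested and 4 were higher in castrated samples at an unadjusted p under 0.05, with 0 lower, against 8.74% higher and 6.28% lower among all genes tested. After adjustment 0 passed. The 4 were Galnt10 and Galnt6, which add the first GalNAc sugar, and St3gal1 and St3gal2, which cap the chain with sialic acid. St3gal2 had a CPM of 48.6, 40.4 and 52.3 in the castrated mice and 27.6 and 26.7 in the intact mice, with a log2 fold change of 0.79 (adjusted p = 0.290 in edgeR). St3gal1 had a CPM of 66.5, 109 and 141 in the castrated mice and 54.7 and 38.7 in the intact mice. For Galnt10 the CPM was 85.8, 42.3 and 61.0 in the castrated mice and 32.4 and 18.2 in the intact mice. In each of these the castrated samples lay above both intact ones, which was so for 5 of the 20 tested and for 17.0% of all genes tested. C1galt1, the enzyme that extends the first sugar to the core 1 chain, was the most abundant of the list per length, and its CPM of 133, 181 and 96.1 in the castrated mice overlapped with the 366 and 157 of the intact mice. The median log2 fold change of the 20 was 0.36, against -0.03 over all genes tested.

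Of 16 regulators of secretory cells, 14 were tested, 7 had a log2 fold change above 0 and 7 below, and 0 had an unadjusted p under 0.05. Xbp1, which expands the secretory pathway, was the most abundant per length, with a CPM of 635, 429 and 391 in the castrated mice and 378 and 273 in the intact mice (log2 fold change 0.58, unadjusted p = 0.13 in edgeR). It was the 1 gene of the 14 whose groups did not overlap, with all castrated samples above, as for 17.0% of all genes tested. Among 12 genes whose products accompany mucus, 7 were tested, 1 was higher and 1 lower at an unadjusted p under 0.05 (8.74% and 6.28% of all genes tested), and 0 passed after adjustment. The higher one was Clca1, a secreted protease of goblet cells, with a CPM of 19.1, 40.0 and 64.9 in the castrated mice and 1.61 and 11.0 in the intact mice. The lower one was Tmprss2, an androgen-responsive protease and the most abundant of this list per length, with a CPM of 166, 206 and 171 in the castrated mice and 232 and 305 in the intact mice.

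Of 21 antimicrobial secretions looked up, 19 were found and 10 tested. At an unadjusted p under 0.05 there were 3 higher in castrated mice and 1 lower, against 8.74% higher and 6.28% lower among all genes tested, and 0 passed after adjustment. Wfdc2, which carries the same kind of whey acidic protein domain as Slpi, had a CPM of 329, 198 and 204 in the castrated mice and 42.3 and 27.7 in the intact mice. Its log2 fold change of 2.80 had a standard error of 0.37 and an adjusted p of 0.289 (edgeR). It was high in all 3 castrated samples, whereas Slpi was high in 1. Lyz1, the lysozyme of Paneth cells, had a CPM of 3.45, 67.3 and 26.7 in the castrated mice and 1.03 and 2.79 in the intact mice. Defb1, a beta-defensin, was lower on the strength of 1 mouse, with a CPM of 508 in intact replicate 2 and of 1.21 in intact replicate 1, the lowest of the 5.

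**Figure D4:**
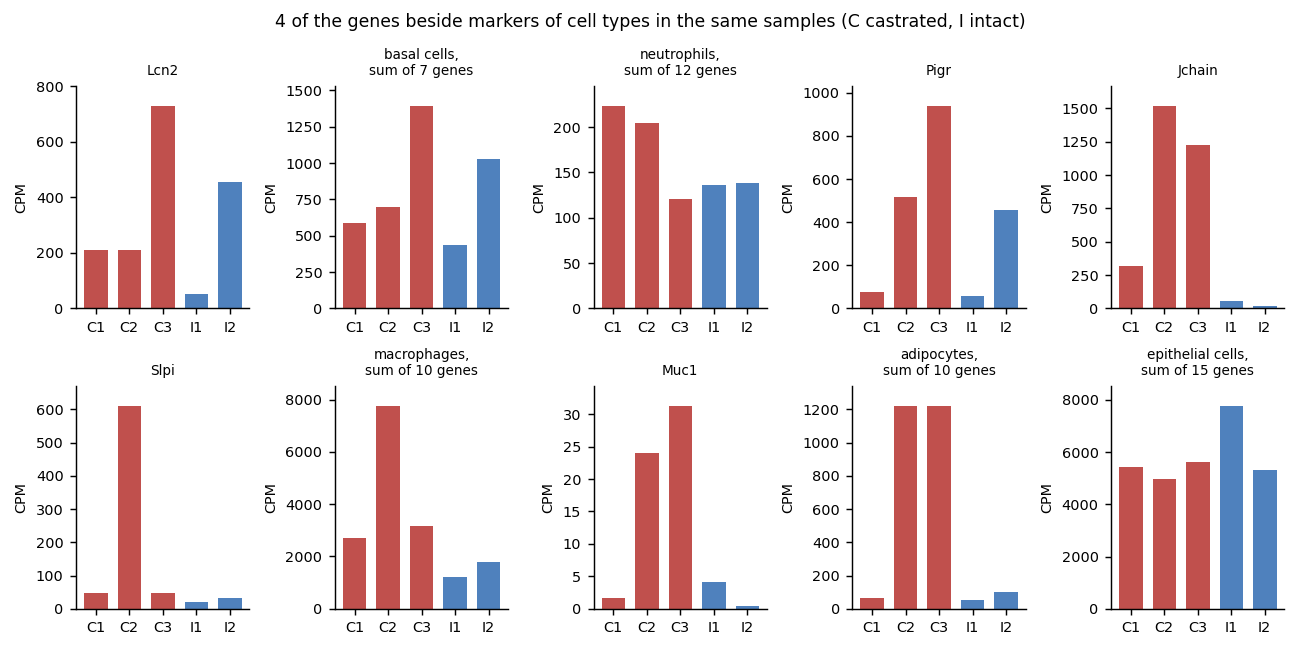
CPM of Lcn2, Pigr, Slpi, Muc1 and Jchain and summed CPM of marker genes of 5 cell types in castrated replicates 1 to 3 (C1 to C3, red) and intact replicates 1 and 2 (I1 and I2, blue), each panel with its own linear scale from 0. Lcn2 is highest where the basal cell sum is highest (1393) and the neutrophil sum lowest (121), Slpi is highest where the macrophage sum is highest (7746), and Muc1 is highest in the 2 samples with adipocyte sums of 1219 and 1218. Jchain is also highest in these 2 samples.

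The values were also set against the epithelial genes of the same sample. The mean log2 CPM of the 15 epithelial genes was 7.90, 7.81 and 7.87 in the castrated mice and 8.32 and 7.97 in the intact mice, and 13 of the 15 had a log2 fold change below 0, with 1 lower at an unadjusted p under 0.05, against 6.28% of all genes tested (Esrp2, a splicing factor of epithelial cells). Relative to that level, the mean log2 CPM of castrated samples was higher by 3.26 for Muc1, 2.41 for Slpi, 1.30 for Pigr, 1.34 for Lcn2 and 0.37 for Agr2. Without this scaling the same differences of means were 2.97, 2.12, 1.02, 1.05 and 0.09, so the scaling moved each by the 0.28 that separates the epithelial levels. These are averages of log values with no test, and they differ from the edgeR fold changes for that reason too.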

How the data were processed

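Total RNA was prepared with ribosomal RNA depletion. Per the labels and the study's methods, the authors used Trimmomatic 0.39 on the paired-end reads, then STAR 2.7.9 for alignment to mm10 and HTSeq 2.0.2 for counting per gene. The authors deposited these as raw counts, not normalized, and gene lengths in the same table were used only for TPM. Samples were grouped by their titles, and none was left out.

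Counts were tested with edgeR 4.0.16 in R 4.3.3, keeping genes whose CPM exceeded 1 in 2 or more samples, with TMM normalization, the quasi-likelihood F-test and Benjamini-Hochberg adjustment over all genes tested. CPM values are per TMM-scaled library, and each standard error was derived from the F statistic and the size of the fold change. The common dispersion was 0.238, a spread between mice far above counting error except for genes with few counts. No 2 samples of a group were the same library (chi-square per gene of 133 or more). Procedures were tested on simulated data.

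The 10 genes and the gene lists were chosen with earlier results of these data known. All 10 were named, and from each list the most abundant gene per length, up to 3 genes with the smallest unadjusted p under 0.05 and every tested mucin. Tgm4, Azgp1, Apof, Msmb, Krt5, Elane, Sdc1 and Galnt6 were named after their values were seen. A gene that the rule names is not reported here. Alternatives were DESeq2 1.42.0, the likelihood ratio test, other scalings and filters, a replicate block, epithelial scaling and leaving out each sample.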

Additional observations from a re-analysis of the deposited data

How the results depend on the processing

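With 5 samples, any difference smaller than the spread between mice was not detectable. With adjustment over 14612 genes, some larger differences were not called either. Wfdc2, at a log2 fold change of 2.80 with a standard error of 0.37, had an adjusted p of 0.289 in edgeR. The cause of each change below was not tested. An older form of the quasi-likelihood fit, chosen after seeing the data, called 0 genes. Genes called over all genes were 0 with edgeR's quasi-likelihood test, where 1596 passed the fold change limit at an unadjusted p under 0.05, against 989 by DESeq2 and 369 by the likelihood ratio test, and between 0 and 1 when a sample was left out. The count at the unadjusted p was 975 with the replicate block and between 867 and 2570 when a sample was left out. None of the 8 genes was called under any alternative run. At an unadjusted p under 0.05 DESeq2 gave 2 of them (20.7% of all genes tested) and the likelihood ratio test gave 2 (14.9% of all genes tested), Muc1 and Slpi in both, 1 came with the replicate block (Slpi, log2 fold change 2.74, with 7.16% of all genes tested), and between 0 and 2 when a sample was left out (7.10% to 22.8% of all genes tested). The adjusted p of Slpi ran from 0.067 with DESeq2 to 0.689 (edgeR's quasi-likelihood test) over its alternatives. Genes whose groups did not overlap numbered between 1 and 5 of 8 when a sample was left out, with 5 without castrated replicate 1 (49.6% of all genes tested) and 4 without intact replicate 1 (72.1% of all genes tested), against 1 of 8 and 33.1% with all samples. Agr2 reversed to -0.22 with the replicate block, and ranged from -0.21 (without castrated replicate 3) to 0.35 when a sample was left out. Lcn2 ranged from -0.27 (without castrated replicate 3) to 2.85 (without intact replicate 2), and was -0.23 without intact replicate 1. When a sample was left out the other genes kept their direction, with ranges from 2.14 to 5.67 for Muc1, 0.18 to 3.08 for Pigr, 0.87 to 3.65 for Slpi, 0.43 to 2.93 for Muc4, 0.34 to 1.59 for Muc20 and 0.26 to 0.86 for Muc13. Same-numbered samples are different mice, and the labels give no pairing beyond the number. The deviations of samples with the same number correlated at 0.173 for replicate 1 and -0.032 for replicate 2. The deviations of the 2 intact samples from their mean mirror each other. These values are therefore not independent and cannot show whether same-numbered samples share a litter or batch.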

Other observations

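Genes of neuroendocrine cells, which appear in some castration-resistant prostate tumors, were higher in castrated mice for 5 of the 7 tested at an unadjusted p under 0.05, against 8.74% of all genes tested, and 0 passed after adjustment. Chga, the granule protein chromogranin A, had a CPM of 4.43, 5.31 and 6.53 in the castrated mice and 0.0896 and 0.186 in the intact mice (log2 fold change 5.25, standard error 0.61, adjusted p = 0.289 in edgeR). Chgb, its relative, had a CPM of 5.37, 3.81 and 12.7 against 0.314 and 0.279, and Pcsk1, a hormone-processing protease, had 3.91, 6.65 and 9.06 against 1.08 and 1.72. Ncam1, a cell adhesion molecule and the most abundant gene of this list per length, did not go with them, since its highest CPM (45.7) and its lowest (10.8) were those of the intact mice.

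Genes of smooth muscle cells, which surround prostate glands, were higher in castrated mice for 7 of 8 at an unadjusted p under 0.05, against the same 8.74%, with 0 after adjustment. Tagln, an actin-binding protein and the most abundant of them per length, had a CPM of 131, 192 and 166 in the castrated mice and 97.3 and 62.6 in the intact mice. Des, the muscle intermediate filament desmin, had 24.4, 44.1 and 55.2 against 7.35 and 3.86, and Lmod1, a leiomodin, had 6.98, 16.7 and 17.3 against 2.02 and 1.30. Cnn1, calponin, was also among the 7. Of 5 urothelial genes tested, 1 was higher at an unadjusted p under 0.05 (8.74% of all genes tested), Upk1a, a membrane plaque protein of the bladder, with 9.28, 27.8 and 43.2 against 2.02 and 6.04. Upk1b, the most abundant of that list per length, was highest in intact replicate 2, at 127.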
